A study of Rattus norvegicus with 9 samples.

Results

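The untreated embryonic cortical culture is described here across its whole transcriptome, from the 3 untreated libraries out of 9 in the series. These were chosen by their label, and all 22050 genes of the deposited table enter. The cells were primary cortical neurons from Sprague Dawley rats at embryonic day 19, dissociated with papain at 2 mg/ml for 30 min. They were grown in Neurobasal-A with 2% B27 and 1% Glutamax, media that favour neurons over dividing glia. They received neither oxygen-glucose deprivation, which the other 6 libraries had, nor Wnt3a and Rspondin 1, which 3 of those 6 had in addition. No source used here gives the days in culture, the number of embryos or whether the 3 libraries came from separate cultures. Every spread below may thus be technical. No other group is compared.

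As background, the cortex forms when progenitors of its ventricular wall make glutamatergic projection neurons, while GABAergic interneurons migrate in from the ventral forebrain. Astrocytes and oligodendrocyte precursors arise from the same progenitors later, whereas microglia and blood vessels come from outside the neural tube. Maturing neurons exchange many receptor and channel subunits for paralogs, and so the paralog used gives a view of the state of a culture. Levels are given in FPKM, which scale a gene's count by its length and the library's total, as the authors deposited them, with mean ± SD over the 3 libraries (n = 3).

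The libraries held 20100579, 15605802 and 25048521 counts for replicates 1 to 3. Pearson's r of log2(CPM + 1) across genes with a read was 0.9964 to 0.9967 between libraries, where genes are not independent replicates. Every pair of libraries differed by more than counting error, with a chi-square over its degrees of freedom of 3.69 to 11.8. The 13 mRNAs of the mitochondrial genome took 3.24% to 4.1% of the counts, ribosomal protein genes 2.15% to 2.25%, and the 100 highest genes 19.2% to 19.5%. A gene with no read in a library could still be present at 3 counts, which is 0.12 to 0.192 CPM. That limit covers counting error only.

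Of the 22050 genes, 11914 (54.0%) stood at or above 1 FPKM in all 3 libraries, 6830 (31.0%) at or above 10 FPKM and 804 (3.65%) at or above 100 FPKM. The median gene stood at 2.27 FPKM, and 5466 genes had no read in any of the libraries. The highest 20 named genes fell into few classes. Of them, 8 were mitochondrial mRNAs, led by Mt-co1 (8802 ± 1300 FPKM) and Mt-co3 (5878 ± 811), subunits of cytochrome c oxidase, then Mt-cyb (4307 ± 364), Mt-co2 (3003 ± 493), Mt-atp6 (2942 ± 209), Mt-nd1 (2248 ± 172), Mt-nd2 (1611 ± 236) and Mt-nd4 (1510 ± 275).

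Of the other 12 genes in that top 20, 6 were of the cytoskeleton. Tuba1a, the alpha tubulin of growing neurons, reached 4592 ± 254 FPKM and was the highest nuclear gene. The beta tubulins Tubb2b (3087 ± 207) and Tubb2a (1731 ± 107), the second alpha tubulin Tuba1b (2081 ± 62.4), Actb (2734 ± 124) and the actin-binding thymosin Tmsb4x (1868 ± 193) were also there. The others were Apoe (2291 ± 35.9), the lipid carrier that astrocytes secrete, the elongation factor Eef1a1 (2948 ± 69.6), the ferritin subunit Fth1 (1801 ± 15.8), the brain creatine kinase Ckb (1678 ± 88.2), the ribosomal protein Rps2 (1593 ± 2.07) and the glycolytic enzyme Gapdh (1426 ± 114). A placeholder gene described as gamma 1 actin-like, LOC100361457, stood among them at 2518 ± 83.2 FPKM beside Actg1 at 708 ± 123, and how reads were split between such near-identical copies is uncertain.

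The label of the culture was checked against 7 defining markers. Tubb3 (ENSRNOG00000017209), the neuronal beta tubulin, stood at 1316, 1209 and 1090 FPKM in replicates 1 to 3, rank 27 of all genes. Rbfox3 (ENSRNOG00000003386), the neuronal splicing factor NeuN, stood at 57.5, 55.0 and 62.3 FPKM. Rbfox3 held rank 1598 of all 22050 genes by its mean. Gfap (ENSRNOG00000002919), the intermediate filament of astrocytes, stood at 907, 963 and 839 FPKM, rank 44, below Tubb3 in each library. Gja1 (ENSRNOG00000000805), the astrocyte gap junction protein connexin 43, stood at 71.9, 77.8 and 76.6 FPKM, above Rbfox3 in each library. Neuronal and astrocyte markers thus stood in the same range of levels in a culture labelled as neurons.

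Slc32a1 (ENSRNOG00000015393), the vesicular transporter that loads GABA in inhibitory neurons, stood at 56.4, 54.8 and 46.2 FPKM, with replicate 3 the lowest. Olig2 (ENSRNOG00000028658), the transcription factor of the oligodendrocyte lineage, stood at 33.2, 36.8 and 32.9 FPKM. Both were well above the median gene. C1qb (ENSRNOG00000012749), the complement subunit made by microglia, stood at 1.19, 1.01 and 0.7 FPKM, from 26, 17 and 19 reads, which was below the median gene in all 3 libraries. In bulk RNA a lower level cannot separate fewer cells of a type from less RNA per cell.

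**Figure D1:**
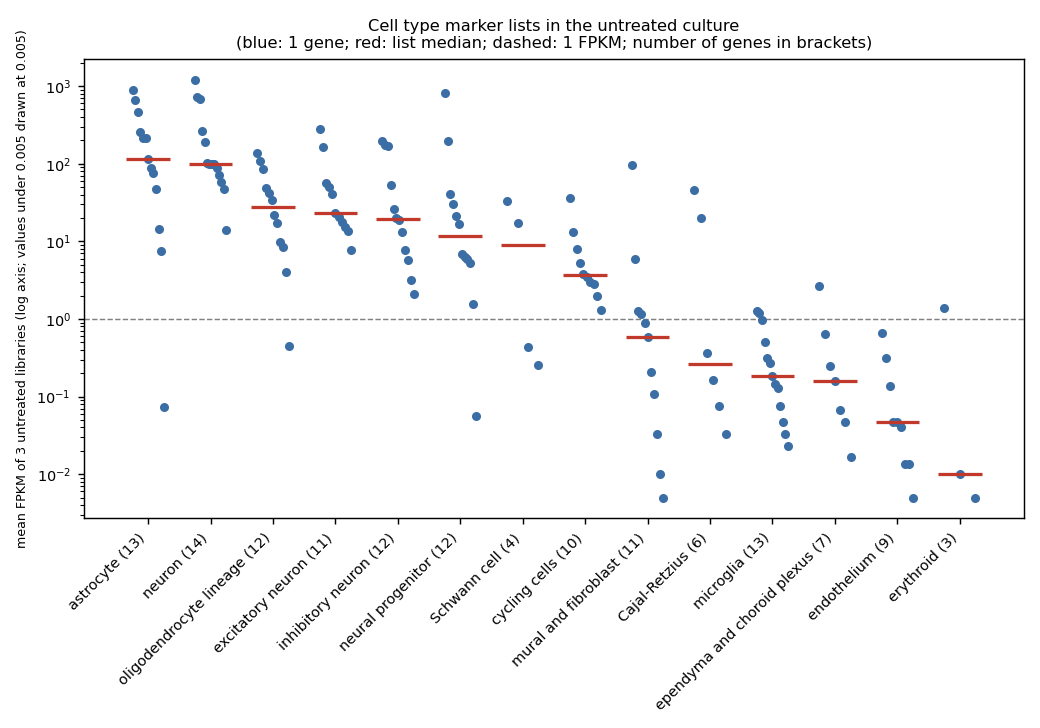
Mean FPKM of the 3 untreated libraries (log axis) for each gene of 14 cell type marker lists, ordered by the list median (red bar), with 1 FPKM dashed. Astrocyte and neuron lists have medians of 116 and 100 FPKM. The medians of the microglia, endothelium, erythroid, mural and fibroblast, Cajal-Retzius, and ependyma and choroid plexus lists lie below 1 FPKM. Single microglia and erythroid genes lie above it, up to 1.28 and 1.39 FPKM.

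The DNA just before the start of 5 lineage markers is shown because these genes, which stood at unlike levels, differed there in CG content. They were chosen after their values were seen. Each line holds the 250 bases before the RefSeq start (build GRCr8), 5′ to 3′ on the strand of the gene, with every CG dinucleotide in capitals. Tubb3 lies at chr19:68365437-68365686 on the plus strand, Slc32a1 at chr3:167686995-167687244 on the plus strand, Gfap at chr10:88361662-88361911 on the minus strand, Fabp7 at chr20:37669356-37669605 on the plus strand and C1qb at chr5:154407828-154408077 on the minus strand.
Tubb3: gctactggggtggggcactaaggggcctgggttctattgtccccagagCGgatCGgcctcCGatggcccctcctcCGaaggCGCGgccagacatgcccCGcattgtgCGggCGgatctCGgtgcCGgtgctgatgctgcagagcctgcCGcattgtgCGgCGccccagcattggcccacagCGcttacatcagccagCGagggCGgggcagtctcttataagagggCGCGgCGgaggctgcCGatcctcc
Slc32a1: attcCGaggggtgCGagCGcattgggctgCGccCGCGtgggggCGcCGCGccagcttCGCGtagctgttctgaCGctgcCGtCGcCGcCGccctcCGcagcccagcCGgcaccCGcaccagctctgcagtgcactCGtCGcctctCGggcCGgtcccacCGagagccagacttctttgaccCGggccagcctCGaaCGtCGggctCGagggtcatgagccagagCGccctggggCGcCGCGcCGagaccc
Gfap: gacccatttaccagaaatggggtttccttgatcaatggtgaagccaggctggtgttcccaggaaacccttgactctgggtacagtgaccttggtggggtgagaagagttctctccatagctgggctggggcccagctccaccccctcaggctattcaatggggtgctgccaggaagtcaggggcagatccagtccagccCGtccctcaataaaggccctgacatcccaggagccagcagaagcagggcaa
Fabp7: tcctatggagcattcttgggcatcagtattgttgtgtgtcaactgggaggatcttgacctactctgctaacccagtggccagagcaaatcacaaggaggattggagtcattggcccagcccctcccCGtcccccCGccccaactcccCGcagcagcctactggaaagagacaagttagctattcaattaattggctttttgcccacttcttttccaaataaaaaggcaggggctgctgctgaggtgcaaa
C1qb: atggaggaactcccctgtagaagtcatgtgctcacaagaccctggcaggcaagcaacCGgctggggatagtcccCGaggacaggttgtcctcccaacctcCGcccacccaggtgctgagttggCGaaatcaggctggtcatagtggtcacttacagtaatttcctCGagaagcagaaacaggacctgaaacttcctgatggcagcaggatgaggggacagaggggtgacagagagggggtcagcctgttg
The Tubb3 window held 21 CG and the Slc32a1 window 34, against 1 for Gfap, 3 for Fabp7 and 5 for C1qb. The ratio of observed CG to the number its C and G content would give was 0.73, 1.01, 0.05, 0.18 and 0.25 in that order. Gfap and Fabp7 (815 ± 70.1 FPKM), a fatty acid binding protein of radial glia and astrocytes, thus stood far above C1qb (0.967 ± 0.248 FPKM) while all 3 windows held few CG.

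All 14 neuron markers stood at or above 10 FPKM in every library, against 31.0% of all genes. Their median was 100 FPKM and their median percentile among all genes 96.1. Below Tubb3 the highest were Gap43 (729 ± 41 FPKM), a growth cone protein, Stmn2 (686 ± 50.2), a tubulin-binding protein of growing axons, and Map2 (266 ± 1.78), the dendritic microtubule protein. The lowest was Elavl4 (14 ± 1.63), an RNA-binding protein. Markers of synapses (Snap25, 47.8 ± 4.75) and of neurofilament (Nefl, 100 ± 1.94, and Nefm, 100 ± 4.19) were present beside Dcx (101 ± 12.4), the doublecortin of young neurons.

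Excitatory and inhibitory neuron lists stood close together. All 11 excitatory markers matched were at or above 1 FPKM in every library, against 54.0% of all genes, with a median of 23.4 FPKM. Nrgn, a calmodulin-binding postsynaptic protein, led at 276 ± 16.9 FPKM, and the vesicular glutamate transporter Slc17a7 (167, 162 and 165 FPKM) and the kinase Camk2a (49.9 ± 2.91) were also high. Slc17a6 was the lowest at 7.64 ± 0.767 FPKM. All 12 inhibitory markers were also at or above 1 FPKM in every library, against the same 54.0%, with a median of 19.4 FPKM. The neuropeptides Npy (199 ± 2.63) and Sst (174 ± 5.38) led, and Gad1 (25.9 ± 0.974) and Gad2 (20.2 ± 0.682), the GABA-synthesising enzymes, were near the middle. The lowest were Vip (3.17 ± 0.432) and Pvalb (2.12 ± 0.849), which mark interneurons that mature late.

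Astrocyte markers stood as high as neuron markers. Of 13, 12 were at or above 1 FPKM and 7 at or above 100 FPKM in every library, against 54.0% and 3.65% of all genes, with a median of 116 FPKM. Gfap was followed by Aldoc (667 ± 31.6 FPKM), a glycolytic aldolase, Glul (466 ± 5.95), which makes glutamine from glutamate, and Atp1b2 (255 ± 6.28), a sodium pump subunit. The water channel Aqp4 stood at 116 ± 9.21 and the folate enzyme Aldh1l1 at 7.44 ± 0.627 FPKM. The exception was Gjb6, connexin 30, at 0.09, 0.11 and 0.02 FPKM. Several of these genes are also made by radial glia.

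Progenitor and dividing cell markers were unequal. Fabp7 led the 12 progenitor markers, followed by Vim (197 ± 14.7 FPKM), Sox2 (41.1 ± 1.34) and Msi1 (29.8 ± 0.395), which astrocytes also make. Pax6, the radial glia transcription factor, stood at 6.77 ± 0.126 FPKM and Eomes, the marker of intermediate progenitors that give rise to glutamatergic neurons, at 0.09, 0.06 and 0.02 FPKM from 4, 2 and 1 reads. All 10 cycling markers were at or above 1 FPKM in every library, against 54.0% of all genes. Their median was 3.67 FPKM and their median percentile among all genes 54.2. Pcna (36.3 ± 1.75) and Aurkb (13.2 ± 0.269) led, then the replication helicase subunit Mcm2 (7.86 ± 1.11) and the cyclin Ccnb1 (5.31 ± 0.683), while Mki67 stood at 1.96 ± 0.14 and Bub1, a mitotic checkpoint kinase, at 1.29 ± 0.219 FPKM.

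The oligodendrocyte lineage was represented from precursor to myelin genes. Of 12 markers, 11 were at or above 1 FPKM in every library, against 54.0% of all genes, with a median of 28 FPKM. Cnp (136 ± 9.4), an enzyme of myelin-forming cells, led. Mbp, the myelin basic protein, stood at 91.3, 127 and 103 FPKM, with replicate 2 the highest. The precursor genes Olig1 (85.8 ± 4.17), Gpr17 (41.5 ± 4.76) and Pdgfra (21.8 ± 1.68) stood beside the late myelin genes Mag (8.39 ± 1.16), Mog (3.98 ± 0.421) and Mobp (0.453 ± 0.297). Sox10 (17.4 ± 1.12) and Pmp22 (33 ± 1.13), which Schwann cells share with this or other lineages, were the only Schwann cell markers above 1 FPKM, with Prx at 0.437 FPKM.

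Markers of cells from outside the neural tube were low. None of the 13 microglia markers reached 1 FPKM in all 3 libraries, against 54.0% of all genes, and 11 had a mean under 1 FPKM. C1qc (1.28 ± 0.545) and C1qa (1.21 ± 0.452) were the highest after which came C1qb and the lysosomal Cd68 (0.503 ± 0.0764), while Ptprc (0.0233 ± 0.0115) was the lowest. Summed over the list, the level was 4.3, 6.5 and 4.74 FPKM. None of the 9 endothelial markers reached 1 FPKM, led by Esam (0.65 ± 0.13) and the VEGF receptor Kdr (0.31 ± 0.0985), and Cldn5, the tight junction protein of brain vessels, had no read. Haemoglobin reads came almost wholly from replicate 2: Hbb had 0, 43 and 0 reads, and the 2 Hba-a2 identifiers had 0, 68 and 2, and 0, 30 and 0 reads. Hba-a2 was chosen after its values were seen.

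Other lists held 1 or 2 high genes over members near 0. Of 11 mural and fibroblast markers, Tagln, an actin-binding protein of smooth muscle, stood at 99.4, 106 and 84.9 FPKM, whereas the smooth muscle actin Acta2 (0.107 ± 0.0945) and the pericyte gene Rgs5 (no read) were at or near 0. Pdgfrb (5.92 ± 1.03), Myh11 (1.25 ± 0.0819) and Dcn (1.16 ± 0.119) were the next, and the list median was 0.583 FPKM. Of 6 Cajal-Retzius markers, Calb2 (45.4 ± 1.56) and Reln (19.9 ± 1.64) are shared with interneurons, and the other 4, Trp73 (listed as Tp73), Lhx5, Lhx1 and Ebf2, were between 0.0333 and 0.36 FPKM. Of 7 ependymal and choroid plexus markers, only Rsph1 (2.62 ± 0.801) was above 1 FPKM in all libraries, and the choroid plexus gene Ttr stood at 0.0467 ± 0.0808.

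Forebrain factors were present and those of more caudal regions were near 0. All 10 forebrain factors were at or above 1 FPKM in every library, against 54.0% of all genes. Nr2f1 (92.3 ± 6.07) led, with Lhx2 at 48.4 ± 3.59 and Otx1 (1.66 ± 0.565) the lowest. None of the 10 midbrain and hindbrain factors exceeded a mean of 0.0533 FPKM (Gbx2), and En1 and Pax2 had no read. The 9 Hox genes, which mark hindbrain and spinal cord, ran from 0 to 0.04 FPKM, and 5 of them had no read. Genes of monoamine and cholinergic neurons, whose cell bodies lie mostly outside the cortex, were all under 1 FPKM, from Slc18a2 (0.98 ± 0.0872) to Slc6a2 (0.01 ± 0.0173).

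Layer and subtype genes of the cortex were all present. The 8 genes listed for upper layers had a median of 22.4 FPKM, led by Mef2c (181 ± 7.33), with Pou3f3 at 39.8 ± 2.05 and Cux2 at 23.4 ± 0.879. Whether these listed genes came only from upper layer neurons was not tested. The 9 deep layer genes had a median of 20.5 FPKM, led by Crym (61.9 ± 1.92), Ldb2 (27.7 ± 2.47), Etv1 (27.3 ± 1.48) and Tle4 (25.4 ± 0.838), with Foxp2 (2.53 ± 0.336) the lowest. The 5 subplate genes ran lower, from Nr4a2 (7.84 ± 0.856) through Cplx3 (4.88 ± 0.342), Ccn2 (2.3 ± 0.145) and Nxph4 (2.24 ± 0.243) to Lpar1 (2.09 ± 0.221). Among striatal genes, Ppp1r1b, the phosphatase regulator DARPP-32, stood at 45.6 ± 1.03 and Foxp1 at 17.7 ± 0.614, both also made in cortex, while the dopamine receptors Drd1 (3.79 ± 0.425) and Drd2 (2.51 ± 0.304) were low and Isl1 lay at 0.15 ± 0.105.

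Genes of more than 1 ventral source of interneurons were present. Dlx1 (18.7 ± 1.75) and Dlx2 (13.2 ± 0.437) mark migrating interneurons in general. Among factors of the medial eminence, Sox6 stood at 9.49 ± 0.764 and Lhx6 at 5.71 ± 0.11 FPKM, whereas Nkx2-1, which cortical interneurons switch off, stood at 0.933 ± 0.14 and the striatal Lhx8 at 0.367 ± 0.14. Of the caudal eminence factors, Adarb2 stood at 8.98 ± 1.17 and Prox1 at 1.25 ± 0.139. Among subtype genes Cck (84.9 ± 8.35) and Calb2 followed Npy and Sst, and the serotonin receptor Htr3a was the lowest at 1.3 ± 0.188. Y-linked genes had reads in each library, with Eif2s3y at 15.0, 16.7 and 20.3 FPKM and Kdm5d at 3.79 ± 0.348, while Ddx3y stood at 0.113 ± 0.0808.

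Paralog families were described by the share of the family's summed FPKM held by each member. In 59 of 63 families the same gene was highest in all 3 libraries, and in 57 the highest and second genes did not overlap between libraries. The share of all gene pairs without overlap was not computed, so this count is not shown to be particular to the families. The highest gene held over 90% in 4 families, from 50% to 90% in 38 and under 50% in 21, with a median of 60.9%. In 6 families the levels of the highest and second genes overlapped between libraries: Gria1 and Gria2 among AMPA receptor subunits, Fgfr1 and Fgfr3, Erbb4 and Egfr, Egln1 and Egln2, Pfkm and Pfkl, and Cacna1b and Cacna1a. On counts with no length, the highest gene changed in 10 families, among them Kv1 channels (Kcna2), RBFOX proteins (Rbfox1), stathmins (Stmn2) and synaptotagmins (Syt11), and without replicate 2 it changed in the ERBB, phosphofructokinase and calcium channel families.

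**Figure D2:**
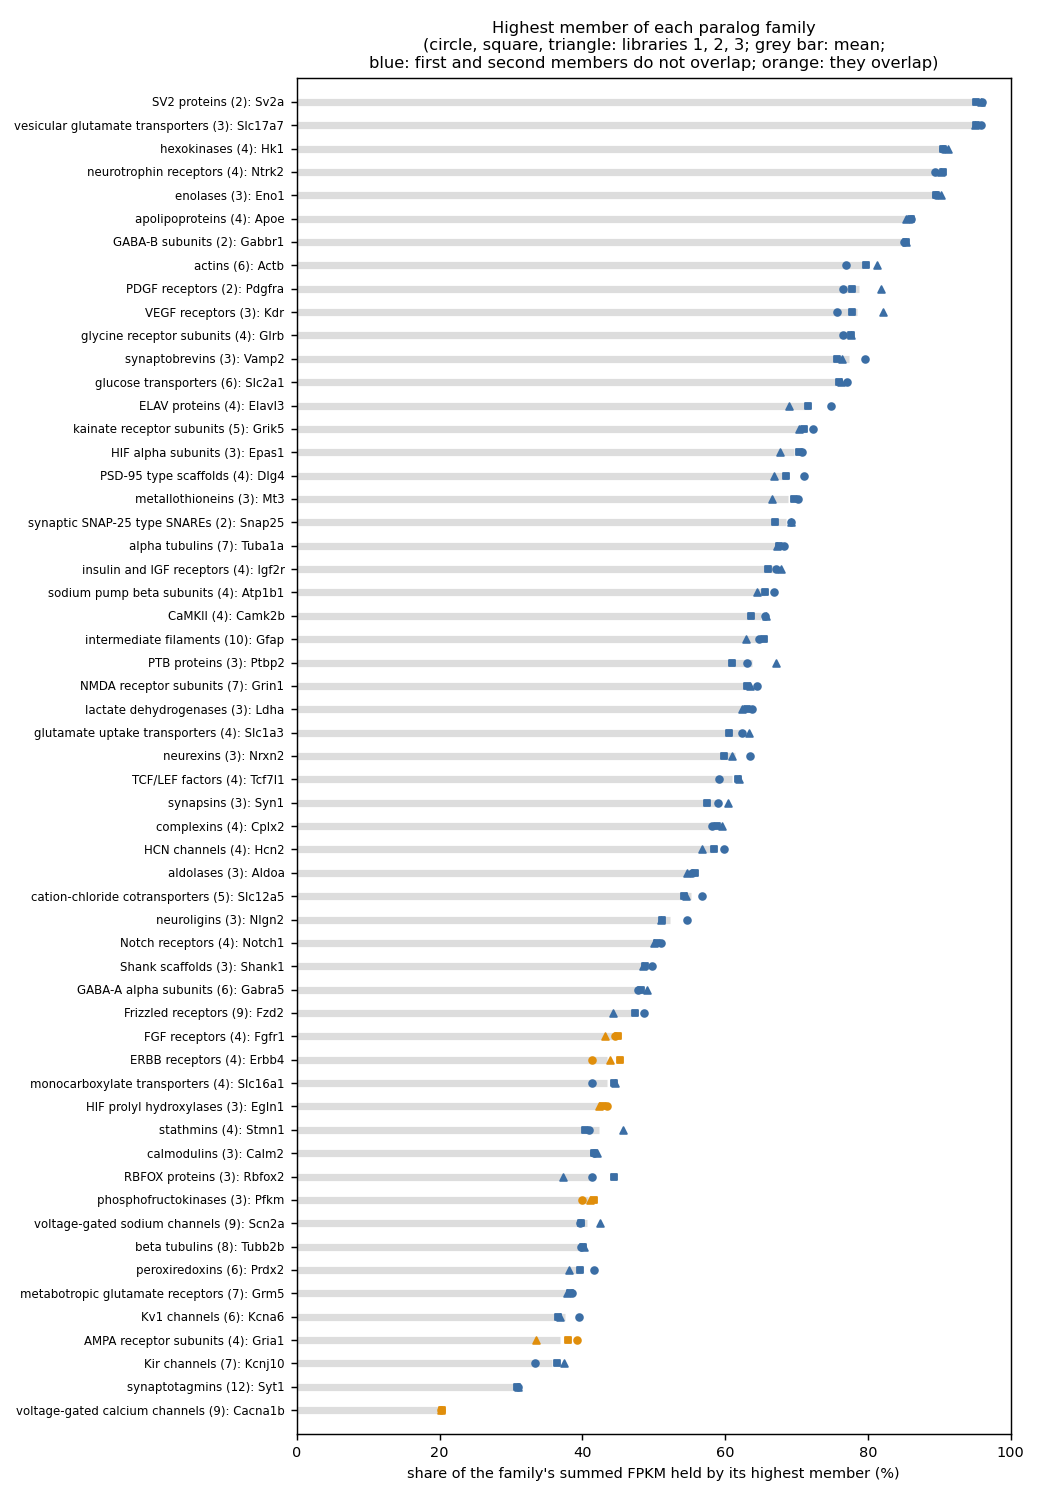
Share of the family's summed FPKM (%) held by the highest member of 57 of the 63 paralog families, with 1 point per untreated library and the mean as a grey bar. Sv2a holds 95.7% and Cacna1b 20.3%, and the 6 families in orange have a first and second gene that overlap.

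Glutamate receptor families differed in how far 1 gene led the others. Grin1, the obligate NMDA receptor subunit, held 63.6% ± 0.679 of its family at 81.6 FPKM, followed by Grin2b (18.4 FPKM), Grin2d (10.8) and Grin3a (8.66), with Grin3b (0.523) the lowest. AMPA receptor subunits were more even. Gria1 stood at 47.5, 46.7 and 42.3 FPKM, and Gria2, the subunit that limits calcium entry, at 39.2, 40.2 and 43.9 FPKM, so that Gria2 was the higher in replicate 3. Gria4 (21.3) and Gria3 (15.5) followed. Grik5 held 71.2% ± 1.01 of the kainate receptor subunits at 71.9 FPKM, above Grik3 (12.7), Grik4 (6.86), Grik2 (6.2) and Grik1 (3.27). Among metabotropic receptors Grm5 (34.8), Grm3 (25.1) and Grm7 (20.5) led.

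GABA receptor genes had an order in which Gabra3 overlapped Gabra2, and Gabrd overlapped Gabrg3, between libraries. Gabra5, the alpha subunit of extrasynaptic receptors, held 48.3% ± 0.605 of the GABA-A alpha subunits at 63.8 FPKM. Gabra3 (24.8) and Gabra2 (24.4) followed, and Gabra4 (6.07) and Gabra6 (0.0667) were the lowest. Among other subunits, Gabrb2 stood at 17.1, Gabrg1 at 15.7, Gabrb1 at 8.52, Gabrd at 4.88, Gabrg3 at 4.42 and Gabre at 0.12 FPKM. The GABA-B subunits form obligate pairs, yet Gabbr1 stood at 362 FPKM and Gabbr2 at 62.5 FPKM. Glrb (32.9) and Glra2 (9.3) were the main glycine receptor genes, with Glra3 at 0.213.

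Presynaptic and postsynaptic families had leading members, some by a small margin. Slc17a7 held 95.4% ± 0.489 of the vesicular glutamate transporters, with Slc17a8 at 0.307 FPKM. Sv2a (140), a vesicle protein, held 95.7% ± 0.482 of the 2 SV2 genes matched. Vamp2 (154) led Vamp3 (29.8) and Vamp1 (15.7), Syn1 (79.9) led Syn2 (36.9) and Syn3 (18.8), and Cplx2 (213) led Cplx1 (144). Syt1 (189) stood only just above Syt11 (175). On the postsynaptic side Dlg4 (241) led Dlg2 (50.1), Dlg3 (49.5) and Dlg1 (9.56), Shank1 (104) led Shank3 (71.7) and Shank2 (36.2), and Nlgn2 (114), the neuroligin of inhibitory synapses, led Nlgn3 (83.6) and Nlgn1 (19.9). Camk2b (256) held 65.0% ± 1.17 of the CaMKII family, with Camk2g at 59.9, Camk2a at 49.9 and Camk2d at 28.4 FPKM.

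Ion channel and pump genes also had leading members. Scn2a (40.4 FPKM) and Scn8a (29.7) led the voltage-gated sodium channels and Scn3a (19.9) and Scn1a (7.56) followed, while Scn4a, Scn10a and Scn11a were under 1 FPKM. Hcn2 (43.5) led the pacemaker channels and Kcna6 (12.3) the Kv1 channels. Kcnj10 (24.0), the potassium channel of astrocytes, led the inward rectifiers. Among calcium channels Cacna1b (29.6), Cacna1a (29.6), Cacna1g (28.4) and Cacna1e (22.3) held close shares, whereas Cacna1s and Cacna1f were under 1 FPKM. Atp1b1 (555) led the beta subunits of the sodium pump, ahead of Atp1b2 and Atp1b3 (36.4).

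Cytoskeletal and metabolic families mixed neuronal, glial and general members. Tubb2b held 40.0% ± 0.21 of the beta tubulins, Tubb2a 22.4%, Tubb5 16% and Tubb3 15.6%, and these 4 held ranks 5 to 27 among all genes. Tuba1a held 67.7% ± 0.511 of the alpha tubulins, a family whose near-identical coding sequences make the split uncertain. Stmn1 (1183 FPKM) led Stmn3 (700), Stmn2 (686) and Stmn4 (214). Hk1 held 90.8% ± 0.38 of the hexokinases, Aldoa (824) led Aldoc (667), and Slc1a3 (216) led Slc1a2 (88.7), Slc1a1 (30.7) and Slc1a6 (12.5) among glutamate transporters. Mt3 (689), the brain metallothionein, led Mt2A (274) and Mt1 (38.2), and Apoe held 85.8% ± 0.412 of the apolipoproteins with Clu at 375 FPKM.

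Further families showed how neuronal and glial members were set beside each other. Slc6a11, the GABA transporter of astrocytes, stood at 144 FPKM. Gfap held 64.3% of the intermediate filaments, with Vim at 14.1%, Nefl and Nefm at 7.18% each and Ina at 70.8 FPKM, while the large neurofilament Nefh stood at 2.56. Nrxn2 (191) led the neurexins, with Nrxn3 at 18.1, and Calm2 (942) the calmodulins, with Calm3 at 677. Elavl3 (101) led the ELAV proteins, and Rbfox2 (73.3) stood above Rbfox3 and Rbfox1 (47.3). Pdgfra held 78.7% of the PDGF receptors, and the 3 VEGF receptors were under 1 FPKM beside the high ligand gene Vegfa. The antioxidant peroxiredoxins were led by Prdx2 (367), Prdx1 (200) and Prdx6 (159), and the lactate and ketone carriers by Slc16a1 (25.7), with Slc16a3 at 10.5.

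Secreted peptides and matrix proteins added to this. Of 17 neuropeptide and granin genes, 16 were at or above 1 FPKM in every library, against 54.0% of all genes. After Npy, Sst and Cck came Scg3 (76.6 FPKM), Chga (73.9) and Scg5 (68.5), which help to form secretory granules, and Pomc was the lowest at 1.09. All 14 brain matrix genes were at or above 1 FPKM in every library, against the same 54.0%. They were led by Sparcl1 (728), which astrocytes secrete, Bcan (223), Sparc (192) and Ncan (116). Acan (2.68), the main proteoglycan of perineuronal nets, and Hapln1 (1.93) were the lowest.

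Several family members have described copies in the table, which were chosen after their values were seen. Slc2a3, the neuronal glucose transporter, was listed at 0, while LOC100909595, described as like it, stood at 44.5, 45.2 and 45.3 FPKM. Slc2a1, the transporter of vessels and astrocytes, stood at 51.1 FPKM, and its share of the family was 76.4% as listed and 45.6% with that copy added. Hsp90aa1 was likewise listed at 0 and LOC103692716, described as heat shock protein HSP 90-alpha, stood at 463 ± 52.5 FPKM. Eno2, the neuronal enolase, stood at 120 ± 9.52 FPKM and its described copy LOC100911625 at 118 ± 5.84 FPKM. With the gamma 1 actin-like gene added, Actg1 held 54.0% and Actb 45.8% of the actins, against 79.3% for Actb as listed.

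Gene pairs known to exchange during maturation, or to differ between cell classes, were compared by their ratio. In 9 of 18 pairs of either kind the first named gene was the higher and in 9 the second. The 2 genes of no pair overlapped between libraries, and how often this holds for any 2 genes was not computed. Grin2b, the NMDA receptor subunit known to dominate before birth, stood at 17.4, 20.2 and 17.6 FPKM against 4.58, 4.86 and 4.86 for Grin2a, which rises after birth (log2 ratio 1.95 ± 0.10). Scn3a, the fetal sodium channel, exceeded Scn1a (log2 ratio 1.4 ± 0.02), and Scn2a exceeded Scn8a (0.45 ± 0.15). Glra2, the fetal glycine receptor subunit, stood at 8.87, 8.81 and 10.2 FPKM against 0.12, 0.27 and 0 for Glra1. These 4 pairs had the earlier gene higher.

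**Figure D3:**
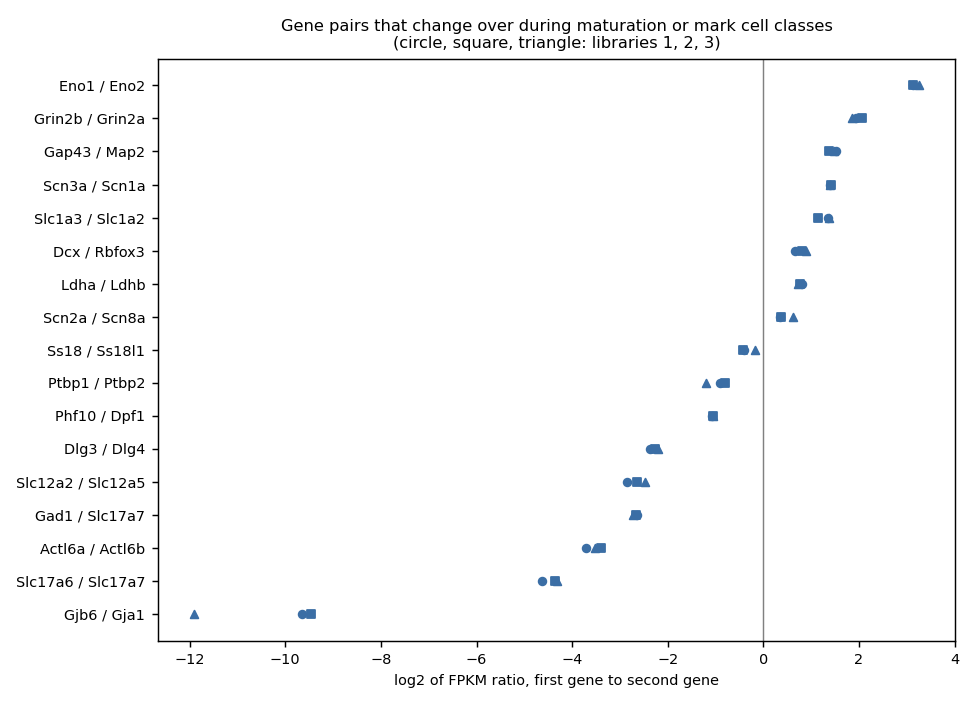
Log2 ratio of FPKM of the first to the second gene in 17 of the 18 pairs, with 1 point per untreated library; Glra2 and Glra1 are left out because 1 library had no Glra1 read. Grin2b to Grin2a lies at 1.95 and Slc12a2 to Slc12a5 at -2.66.

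Other pairs had the later gene higher. Slc12a5, the chloride exporter KCC2 of mature neurons, stood at 53.9, 51.2 and 50.5 FPKM against 7.45, 8.23 and 9.07 for Slc12a2, the importer NKCC1 (log2 ratio of Slc12a2 to Slc12a5 -2.66 ± 0.19). Dlg4, the mature scaffold PSD-95, stood 4.87-fold above Dlg3, and Slc17a7 stood 21.6-fold above Slc17a6, the glutamate transporter known to precede it. Of the chromatin remodelling subunits that neurons exchange, the neuronal Actl6b stood 11.7-fold above Actl6a, Dpf1 2.09-fold above Phf10, and Ss18l1 1.27-fold above Ss18. Ptbp2, the splicing factor of young neurons, stood 1.96-fold above Ptbp1.

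The other pairs set cell classes, isoforms or astrocyte and neuron maturation markers beside each other. Gad1 to Slc17a7 lay at -2.67 ± 0.04, Gap43 to Map2 at 1.45 ± 0.08 and Dcx to Rbfox3 at 0.78 ± 0.11 on the log2 scale. Among genes listed as astrocyte markers, Slc1a3 exceeded the later Slc1a2 (1.29 ± 0.13), and Gja1 stood far above Gjb6 (log2 ratio of Gjb6 to Gja1 -10.34 ± 1.36). These ratios are of the whole culture and were not measured in 1 cell type. Eno1 to Eno2 lay at 3.17 ± 0.07 and Ldha to Ldhb at 0.77 ± 0.04. Gene length decided the sign of 1 ratio: on counts with no length, Ss18 to Ss18l1 was 0.79. With the described copy added to Eno2, the Eno1 ratio fell to 2.18.

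The Wnt pathway is the one the series later stimulated. As background, Wnt ligands bind Frizzled receptors with LRP5 or LRP6, which keeps beta-catenin from being degraded so that it acts with TCF/LEF factors, and Rspondins bind LGR receptors and spare the Wnt receptors from removal by RNF43 and ZNRF3. Of 19 Wnt ligand genes, 4 were at or above 1 FPKM in every library, against 54.0% of all genes. Wnt7b stood at 40.8, 39.7 and 37.1 FPKM and Wnt7a at 17.7 ± 1.23, followed by Wnt4 (3.4 ± 0.356) and Wnt5a (3.25 ± 0.235). The other 15 were lower, 14 of them under 1 FPKM on average. Wnt3a, the ligand that the series added to other cultures, had 0, 0 and 1 reads, and Wnt6 and Wnt8a had none.

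Rspondins and their receptors were at low to moderate levels. Rspo2 stood at 3.75 ± 0.416 FPKM, Rspo1 at 0.96, 0.75 and 0.82, Rspo3 at 0.683 ± 0.154 and Rspo4 at 0.02 ± 0.0346 FPKM. Lgr4 was the main Rspondin receptor gene, at 10.6, 11.8 and 12.3 FPKM, above Lgr6 (1.66 ± 0.1) and Lgr5 (0.503 ± 0.115), and Rnf43 stood at 0.537 ± 0.0643. Fzd2 (34.3, 35.4 and 30.4 FPKM) and Fzd3 (16.1) led the Frizzled receptors, then Fzd9 (7.61) and Fzd1 (6.44), with Fzd6 (0.147) the lowest. The co-receptors Lrp5 (9.98 ± 0.608) and Lrp6 (9.25 ± 0.342) were about equal, and Ryk, an alternative Wnt receptor, stood at 17.6 ± 0.297 and Ror1 at 0.06 ± 0.01.

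By list median, cytoplasmic components (52.7 FPKM) stood above Frizzled receptors (3.04) and TCF/LEF factors (1.18), while single genes overlapped. All 11 core genes matched were at or above 1 FPKM in every library, against 54.0% of all genes. They were led by Ctnnb1, beta-catenin itself (272, 280 and 253), the kinases Gsk3a (171 ± 9.72) and Csnk1a1 (132 ± 7.92), and Gsk3b (67.8 ± 3.11). Dvl2 was the lowest at 8.23 ± 0.756. Much beta-catenin serves cell adhesion. Tcf7l1 (3.9), known mainly as a repressor of targets, and Tcf7l2 (2.22) were the highest TCF/LEF genes, with Lef1 at 0.14 and Tcf7 at 0.13 FPKM. A second identifier described as Tcf7l2 stood at 0.933 ± 0.281 FPKM, which left Tcf7l1 the highest when added.

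Antagonists and feedback targets of the pathway were unequal. Of 12 secreted antagonists, 7 were under 1 FPKM and the list median was 0.483 FPKM. The 5 at or above 1 FPKM in every library, against 54.0% of all genes, were Dkk3 (29.6 ± 1.98), Sfrp1 (11.2 ± 0.544), Sfrp2 (9.59 ± 0.776), Wif1 (9.52 ± 0.375) and Dkk4 (6.07 ± 0.395), while Dkk1 (0.0233 ± 0.0404) and Dkk2 (0.02 ± 0.0265) were near 0. Axin2, the feedback gene most used as a readout, stood at 2.48, 2.06 and 2.16 FPKM. Tnfrsf19 (12.5 ± 1.64), Myc (12.2 ± 0.401), Nkd2 (12.1 ± 0.484) and Ccnd1 (11.1 ± 0.251) were the highest of 8 targets, several of which answer to other pathways, and Sp5 the lowest at 0.00667 ± 0.0115. The KEGG Wnt signalling pathway had 101 of 142 genes at or above 1 FPKM (71.1%), with a median of 8.29 FPKM, against 58.2% and 4.3 FPKM over all genes with a pathway.

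**Figure D4:**
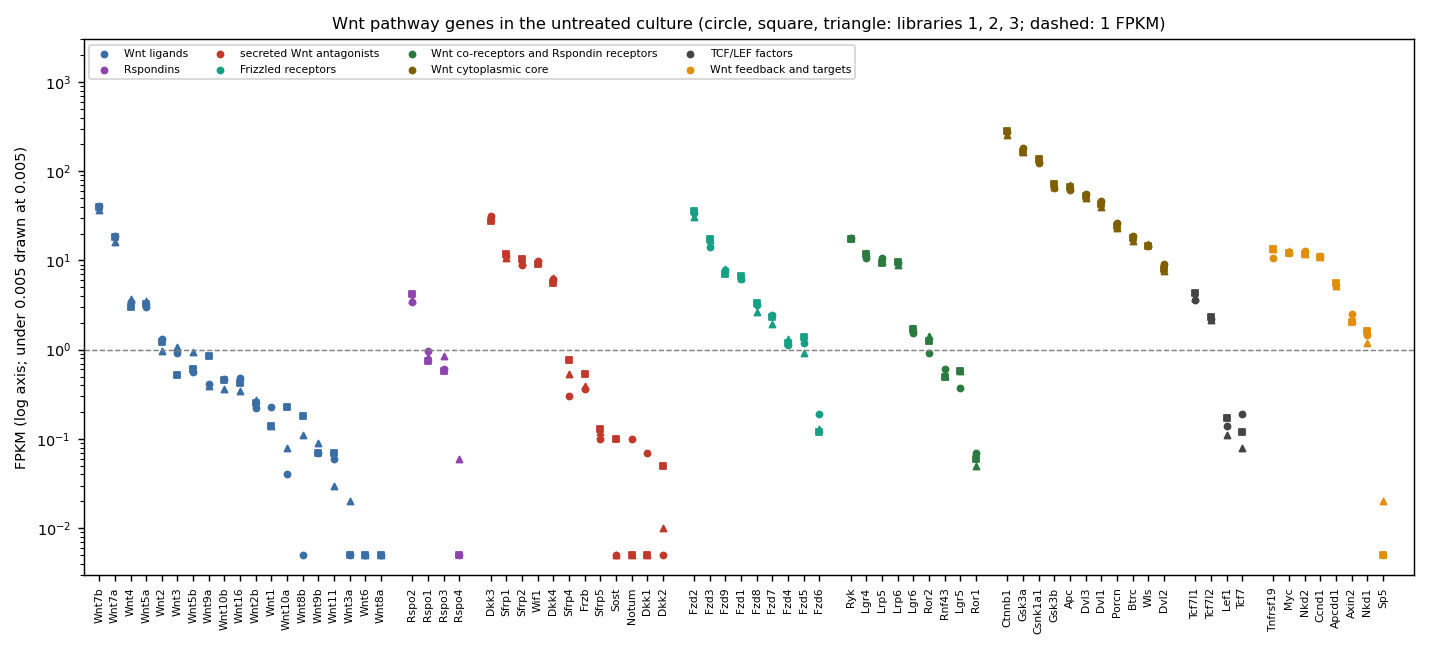
FPKM (log axis) of Wnt pathway genes by role, with 1 point per untreated library. Ctnnb1 is the highest at 269 FPKM on average, Wnt7b leads the ligands at 39.2 FPKM, and Wnt3a, Wnt6 and Wnt8a lie at or near 0.

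Genes of other developmental pathways were mostly at low to moderate levels. In the BMP pathway the inhibitor gene Id2 (62.8 ± 0.856) and the receptor Bmpr2 (26.8 ± 2.92) led, then Id3 (25.8 ± 1.85) and Smad4 (25.6 ± 2.25), and Bmp2 was the lowest at 0.41 ± 0.0889, with Bmp4 the highest ligand at 10.2 ± 1.15. In the Hedgehog pathway Ptch1 (13.4 ± 0.338) and Smo (12.7 ± 0.291) led, then Sufu (6.09 ± 0.516) and Gli3 (4.07 ± 0.433), and the ligand Shh was the lowest at 1.67 ± 0.273. Notch1 (17.3) led the Notch receptors, and Hes5 (21.4 ± 1.36) and the ligand Jag2 (16.3 ± 1.75) led their ligands and targets, with Dll4 at 0.01 ± 0.01. Ntrk2, the BDNF receptor that astrocytes also make, held 90.1% ± 0.597 of the neurotrophin receptors at 166 FPKM, while its ligand gene Bdnf stood at 0.49, 0.41 and 0.62 FPKM. Ptn (181 ± 27.6), Vegfa (127 ± 5.63), Fgf13 (83.4 ± 5.96), which acts inside cells, and Mdk (48.7 ± 6.07) were the highest of 19 trophic ligand genes, and Ntf4 the lowest.

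Transmitter and hormone receptor genes varied over wide ranges. Adora1, the inhibitory adenosine receptor, led 14 purine receptors at 53.1 ± 2.2 FPKM, ahead of Adora2a (8.63 ± 0.891), Adora2b (7 ± 0.615) and P2rx4 (6.14 ± 0.242), and Cnr1, the neuronal cannabinoid receptor, stood at 39.7 ± 2.51. Chrm1 (21.6 ± 1.53) led the muscarinic receptors, and Chrnb2 (28.6 ± 2.78) and Chrna4 (19.6 ± 2.97) led the nicotinic subunits. None of the dopamine, adrenergic and serotonin receptors matched exceeded the mean of Adra2a (6.99 ± 0.486). Thra, the thyroid hormone receptor alpha, led 19 nuclear receptors at 400 ± 24.4 FPKM, far above Rxrb (26.6 ± 0.902) and Thrb (7.05 ± 1.03). Among 1656 genes annotated as G protein-coupled receptors, of which many are odorant receptors, 118 (7.13%) were at or above 1 FPKM in every library. The highest, chosen after their values were seen, were Gabbr1, the latrophilin Adgrl1 (149 ± 9.98), Ntsr2 (130 ± 14) and Gpr37l1 (127 ± 7.51), the last 2 known from astrocytes.

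Glycolysis and cholesterol genes were mostly above the median gene. Of 15 further glycolysis genes, all were at or above 1 FPKM in every library, against 54.0% of all genes. They were led by Gapdh, Pkm (669 ± 40.7), Tpi1 (515 ± 9.43) and Pgk1 (396 ± 24.5), with Pdk4 the lowest at 1.72 ± 0.294. Described copies of Gapdh (LOC108351137, 903 ± 53.5) and Tpi1 (LOC100911515, 268 ± 27.2) again make their levels uncertain. All 15 cholesterol genes were at or above 10 FPKM in every library, against 31.0% of all genes, led by Hmgcs1 (493 ± 4.53), and Fdps (239 ± 11.6), with Cyp51 at 118 ± 7.49. In the glutamine cycle Glul was followed by Glud1 (231 ± 1.92), Slc38a3 (136 ± 14.7) and Got2 (123 ± 5.23). Of 309 KEGG pathways of 10 to 500 genes, oxidative phosphorylation had the highest median (120 FPKM), and synaptic vesicle cycle (83.8), the citrate cycle (80.1) and the proteasome (75.9) were among the first 7. The asthma pathway had the lowest median, 0 FPKM, and cytokine-cytokine receptor interaction stood at 0.0467 FPKM. In the latter 59 of 264 genes (22.3%) were at or above 1 FPKM, against 58.2% of all genes with a pathway.

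Oxygen response and stress genes were expressed in the untreated libraries. Epas1 (74.9 FPKM), the HIF-2 alpha gene known from astrocytes and vessels, exceeded Hif1a (31.1) and Hif3a (1.54). Ddit4 (249 ± 10.3), an mTOR inhibitor, Vegfa, Bnip3 (104 ± 8.36) and Ndrg1 (62.4 ± 2.14) were the highest of 13 oxygen response genes, and Ca9 the lowest at 0.467 ± 0.28. Of 14 stress genes matched, Hspa8 (349 ± 6.35, with a described copy at 1085 ± 9.9), Hspa5 (271 ± 5.82), Atf4 (114 ± 6.7) and Asns (72.6 ± 2.98) led. Immediate early genes were lower, with Jund (58.5 ± 1.09), Homer1 (26.4 ± 1.43), Jun (24.7 ± 1.43) and Junb (12.5 ± 0.62) first and Npas4 (0.757 ± 0.0493), Fosb (0.25 ± 0.122) and Egr2 (0.233 ± 0.0513) under 1 FPKM. Of 16 BCL2 family genes listed, 12 were matched, and Mcl1, Bim, Bbc3 and Hrk were not found under those symbols. Among those matched, Bnip3, Bok (57.8 ± 4.52), Bax (57.7 ± 3.16) and the survival gene Bcl2l1 (38.6 ± 0.836) led, and Bcl2 itself stood at 2.44 ± 0.0643 FPKM. Of 17 inflammatory genes, 4 were at or above 1 FPKM in every library, against 54.0% of all genes, and 13 were under 1 FPKM on average. Il1a, Tnf and Ccl3 had no read, as had 5466 of all 22050 genes, while the neuronal chemokine Cx3cl1 stood at 55.7 ± 2.59.

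The CG content of the DNA before the start was set against level across genes. A start with 1 entry in the RefSeq table was matched by symbol for 12660 of 22050 genes. The motif CG reads the same on both strands, and 97.1% of these 250-base windows held at least 1. The median ratio of observed to expected CG was 0.2 in 1513 genes with no read, 0.3 above 0 and up to 0.1 FPKM, 0.45 up to 1 FPKM, 0.72 up to 10 FPKM, 0.79 up to 100 FPKM and 0.81 above 100 FPKM. The share of genes with a ratio over 0.6 was 7.34% among those with no read, 80.0% above 100 FPKM and 56.2% over all 12660. By list, 8 of 8 cycling genes with a window had a ratio over 0.6, against 1 of 7 astrocyte, 1 of 8 microglia, 3 of 7 neuron and 6 of 9 inhibitory neuron markers. This is a description across genes of 3 libraries that share their annotation.

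**Figure D5:**
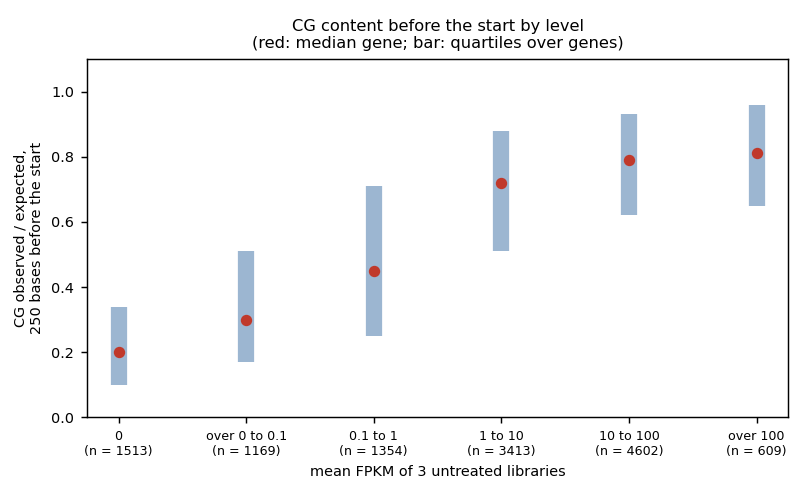
Ratio of observed to expected CG in the 250 bases before the start for genes in 6 classes of mean FPKM, with the median (red) and quartiles over genes (bar). The median rises from 0.2 in genes with no read to 0.81 above 100 FPKM.

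The typical gene spread by a few percent between the 3 libraries beyond counting error, although every pair of libraries differed by more than that error. Over 11908 genes with at least 50 scaled counts, the coefficient of variation beyond counting had a median of 4.55% and a 90th percentile of 12.7%. For 3028 genes (25.4%) the estimate was 0. It was set to 0 wherever the variation over libraries fell below the counting part, so 0 does not show that a gene had no spread. The median was 1.57% without replicate 3 and 2.7% without replicate 1. With 2 libraries more estimates can fall to 0, so these lower medians cannot be traced to the library left out. Among marker lists the median estimate ran from 0% for neural progenitors to 6.82% for the oligodendrocyte lineage and 13.6% for the 4 mural and fibroblast genes with enough counts (Col1a1 36.5%). Of the 10 most variable genes at 10 FPKM or more, 8 carry placeholder symbols. The others were Wbp11, a splicing factor (7.13, 9.46 and 20.03 FPKM), and Ifi27, an interferon-induced gene (30.2, 13.7 and 14.3 FPKM). In both genes 1 library stood apart from the other 2.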

How the data were processed

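Libraries were made from 1 µg of total RNA with a TruSeq kit, per the labels' protocols. Bowtie 0.12.2 and builds of the mouse genome appear in the submitters' processing notes, although the samples are rat. The rat build, how reads were aligned and counted, and the strand setting were not stated in any label or file header used here. Antisense or overlapping genes may share reads for that reason. The count columns deposited by the authors are raw whole numbers. The deposited FPKM columns are counts scaled by gene length and library total by the authors. For 5072 of 6006 genes with at least 500 counts in all 3 libraries (84.4%), the length implied by both agreed to 1% between libraries. Up to 25 genes per library had FPKM above 0 with a count of 0.

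Columns were matched to libraries by title. Levels, ranks, family shares and ratios were computed from FPKM with Python 3.11.15, numpy 2.4.6 and pandas 2.3.3. There was no test, since 1 group was used. The spread was the coefficient of variation of counts scaled by total, less that of counting, tested on simulated data, and repeated with TMM factors from edgeR 4.0.16 in R 4.3.3. Symbols were matched ignoring case: 798 of 830 were found, and the highest of several identifiers was used. Named genes were, by rule, the 20 highest, the highest 4 and the lowest of each list, all members of small lists, both genes of each pair and the 10 most variable; some are given only by counts. The members and lists were chosen with earlier results of these data known, and genes annotated as receptors, described copies and the CG measure after values were seen. A TATAAA match in the same windows was also looked at and is not reported. Alternatives covered thresholds, units, pseudocounts, left-out libraries and added copies. Some members of the lists, and 4 of 22 pairs, are not reported here; counts and medians over a list include every matched member.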

Additional observations from a re-analysis of the deposited data

How the results depend on the processing

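The number of genes at or above 1 FPKM in all 3 libraries (11914) ran from 10994 to 12625 over other thresholds, units and left-out libraries. Median percentiles of marker lists moved by more than the SD over libraries as follows. With CPM, which ignores length, they were 97.6 for astrocyte, 97.8 for neuron, 86.5 for excitatory, 83.5 for inhibitory, 58.9 for progenitor, 59.9 for cycling, 87.3 for oligodendrocyte lineage, 62.9 for Schwann cell, 40.5 for Cajal-Retzius, 44.3 for mural and fibroblast, 34.3 for microglia and 32.7 for endothelium markers. Against only genes with a read these 12 values were 95.7, 94.8, 75.8, 71.9, 58.9, 39.1, 78.6, 45.3, 17.7, 24.4, 16.2 and 8.3, and ependyma and erythroid lists both stood at 15.4. Without genes of another list the oligodendrocyte value was 87.1 and the Schwann cell value 40.7. With the median over libraries the endothelium, ependyma and erythroid values were 31.5, 37.3 and 14.6. Leaving out 1 library at a time, they ran from 30.9 to 31.4, from 35.8 to 37.2 and from 12.9 to 27.7, the lowest erythroid value without replicate 2, which held the haemoglobin reads. The spread between libraries ran from 1.57% to 4.47%, where a change of over 10% was counted as moved. The sign of 1 of 17 pair ratios turned with counts in place of FPKM, to 0.79 (Ss18 to Ss18l1), where the alternative differs by leaving out gene length. The ratio of Glra2 to Glra1 had no value on counts, since 1 library had no Glra1 read. No paired analysis was possible because only 1 group of libraries was used. Values of genes near 3 counts per library are limited by depth.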
